A study of Homo sapiens with 8 samples.

Results

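The 10 genes described here are death receptors, decoy receptors and both ectodysplasin (EDA) receptors of the TNF receptor superfamily. They are TNFRSF10A, TNFRSF10B, TNFRSF10C, TNFRSF10D, FAS, TNFRSF1A, TNFRSF25, TNFRSF6B, EDA2R and EDAR. The set is not complete. TNFRSF21, for example, has a death domain and is given with the other TNF receptors. These 10 genes were found among 20296 genes by the RefSeq transcript or symbol of their array probes, 15 probes in all. Each gene was read from whichever of its probes was brightest on average. MCF10A is a non-tumorigenic human mammary epithelial line. RNA of MCF10A p53+/+ cells and MCF10A p53-/- cells was taken at 0 h without treatment, or 12, 24 or 48 h after treatment with ADR (adriamycin, the DNA-damaging drug doxorubicin). The labels give a dose of 0.5 µg/ml for 2 h and the study's methods another dose. Each genotype and time point had 1 array, each genotype was 1 line, and how p53 was removed is not given in the sources used here.

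Death receptors carry a death domain in their cytoplasmic tail. When a trimeric ligand binds, the domain gathers an adaptor such as FADD and an initiator caspase, which starts apoptosis from outside the cell. Decoy receptors bind the same ligands without passing on the full signal. p53 is a transcription factor that is stabilised by DNA damage of the kind ADR causes, and several death receptor genes are known p53 targets.

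Levels are log2 of the scanner software's processed signal over the 75th percentile of that array, so that 0 is the level of the 75th percentile. Levels of different probes cannot be set against each other, since probes differ in brightness. The 75th percentile itself was a signal of 661 to 1199, 49.8% to 62.9% of probes were well above background by the scanner software's flag, and no spot was saturated. On the p53+/+ 48 h array 0 of 10 spike-in probes were well above background, against 6 on each other array. The p53-/- arrays lay in one column of the slide and the p53+/+ arrays in the other, and these positions cannot be told apart from genotype.

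The array labelled p53+/+ 0 h stood nearer to the p53-/- arrays than to the treated p53+/+ arrays. The epithelial cadherin CDH1 was at -3.13 on the array labelled p53+/+ 0 h, between -3.55 and -0.94 on the p53-/- arrays and between 1.42 and 2.10 on the treated p53+/+ arrays. Over 28947 probes the array labelled p53+/+ 0 h had a Pearson r of 0.955 to 0.984 with the 4 p53-/- arrays and of 0.913 to 0.938 with the treated p53+/+ arrays. Changes in p53+/+ cells are therefore given from this array and from the p53-/- 0 h array, and treated arrays of both genotypes are compared without it. Of 9 basal and epithelial markers 8 were well above background on all 8 arrays, TP63 on 3, and 6 were higher in treated p53+/+ than treated p53-/- cells in limma (KRT5, KRT14, KRT17, CDH1, LAMB3 and ITGB4), by 2.08-fold for LAMB3 to 15.8-fold for CDH1. The log2 of the summed levels of the 9 was 8.84 to 9.38 on treated p53+/+ and 7.86 to 8.17 on treated p53-/- arrays, with 8.31 on the array labelled p53+/+ 0 h and 7.69 on p53-/- 0 h. The brightest probes weighed most in it, those of LAMB3 (5.98 to 7.80 over the 8 arrays) and KRT6A (6.01 to 7.44). KRT6A was not among the 6 that were higher in limma. Of 7 markers of blood, endothelial and stromal cells 3 were well above background on all arrays (PTPRC, CD68 and CDH5). In limma 3 were lower in treated p53+/+ cells, against 7.4% of all probes. These were PECAM1 at least 6.58-fold, COL1A1 at least 2.85-fold, and PDGFRB, for which no fold is given. The log2 of the summed levels of the 7 was -0.02 to 0.70 against 0.95 to 1.11, with 1.12 and 1.30 on the same untreated arrays. This sum was mostly the brightest probe, that of CD68 (-0.51 to 0.85 over the 8 arrays), which was not among the 3 that were lower in limma. The part of these markers in the results was not tested.

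RefSeq promoter windows of build GRCh38.p14, 250 bases before to 50 after a start site, were found for 5 of the receptors, in 8 windows. They were searched for the p53 consensus half-site, which reads the same on both strands. It was present in 1 of the 8 windows, one of 3 windows of FAS, and in 6.63% of all 35116 windows. The stretch around it is shown because FAS is a receptor whose level differed between the genotypes. The capitals mark the half-site, which begins 122 bases before the start site of that window and is followed without a gap by a second stretch of the same form with 2 mismatches; 7.82% of all windows hold a pair of half-sites with as few mismatches at a spacing of up to 13 bases. The second sequence is the stretch directly before the outermost EDA2R start site, the receptor with the greatest difference that was measured on both sides. No half-site was present in either EDA2R window.
FAS, chr10:88991269-88991368, plus strand: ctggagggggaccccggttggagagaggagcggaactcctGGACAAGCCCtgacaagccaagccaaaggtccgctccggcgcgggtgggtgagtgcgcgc
EDA2R, chrX:66639270-66639369, minus strand: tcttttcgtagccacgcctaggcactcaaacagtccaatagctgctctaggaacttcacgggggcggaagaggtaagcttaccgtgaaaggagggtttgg

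After ADR, 6 of 9 receptors were higher in p53+/+ than in p53-/- cells by 2-fold or more at 12, 24 and 48 h. These were TNFRSF10A, TNFRSF10B, TNFRSF10C, FAS, TNFRSF6B and EDA2R. Those 9, and 15811 genes in all, had a probe flagged by the scanner software as well above background somewhere among the 8 arrays. Of all these genes, 6.75% passed. In the opposite direction none of these 9 receptors passed, where 5.92% of genes did. The median difference of the 9 receptors was 1.83, 2.05 and 2.03 on the log2 scale at the 3 times, against 0.09, -0.03 and 0.10 for all genes. TNFRSF10C entered the 9 through its treated p53+/+ arrays alone, so that it had to differ; of the receptors well above background on all 8 arrays, 4 of 7 passed, against 6.25% of 11828 genes under the same filter.

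**Figure D1:**
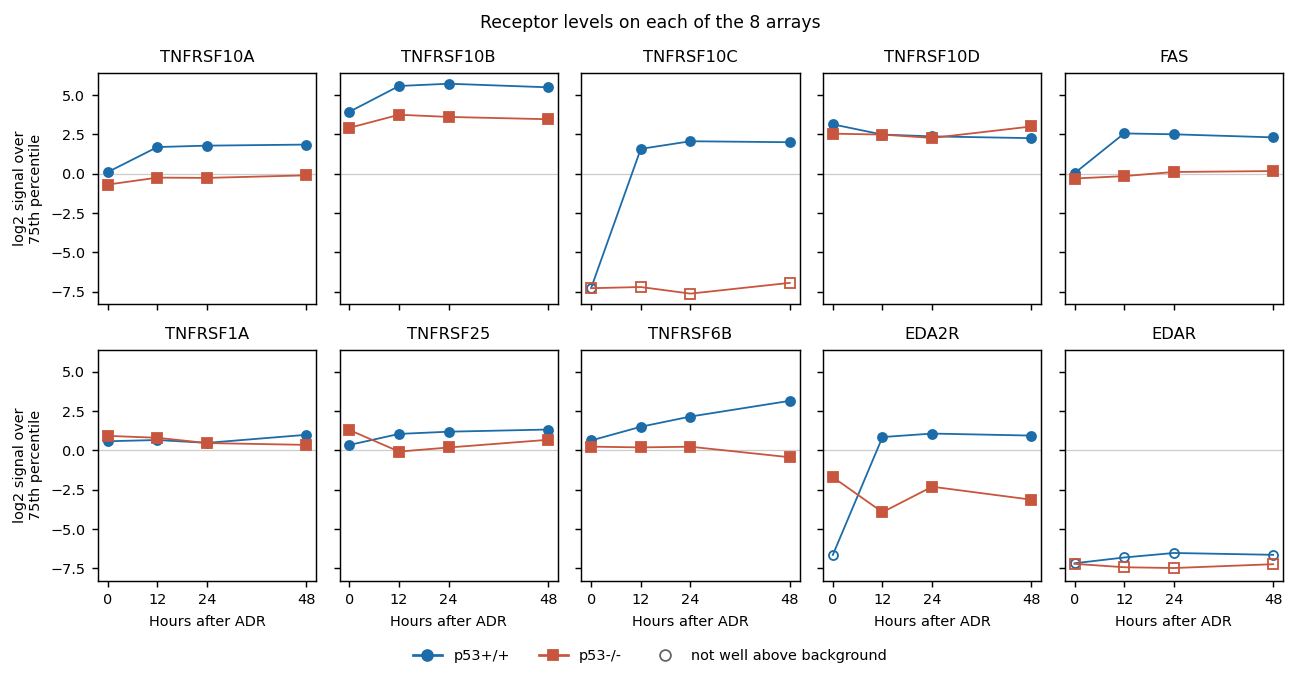
Level of each receptor (log2 of the signal over the array's 75th percentile) against hours after ADR, 1 array per point, in p53+/+ cells (circles) and p53-/- cells (squares). Open symbols are not well above background, and the first circle of each panel is the array labelled p53+/+ 0 h. TNFRSF10C lies between 1.58 and 2.07 on the treated p53+/+ arrays and is not well above background on the other 5 arrays.

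With 1 array per condition, a single time point has no replicate check. limma was fitted on all 28947 probes, with the 3 treated times of a genotype in the place of replicates. Its p-values set the difference against the movement over time and are adjusted over all probes by Benjamini-Hochberg. The technical SD of a log2 difference between 2 arrays, from spots printed repeatedly, was 0.0291 to 0.163 for receptors well above background on both, and covers only the spread between spots. In limma 7 receptors were higher in treated p53+/+ cells, against 10.6% of all probes; 1 of them is TNFRSF10C, which had to differ. No receptor of the set was lower, against 7.4% of probes. At an unadjusted p under 0.05 these were the same 7 and 0, against 34.0% of probes in either direction.

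**Figure D2:**
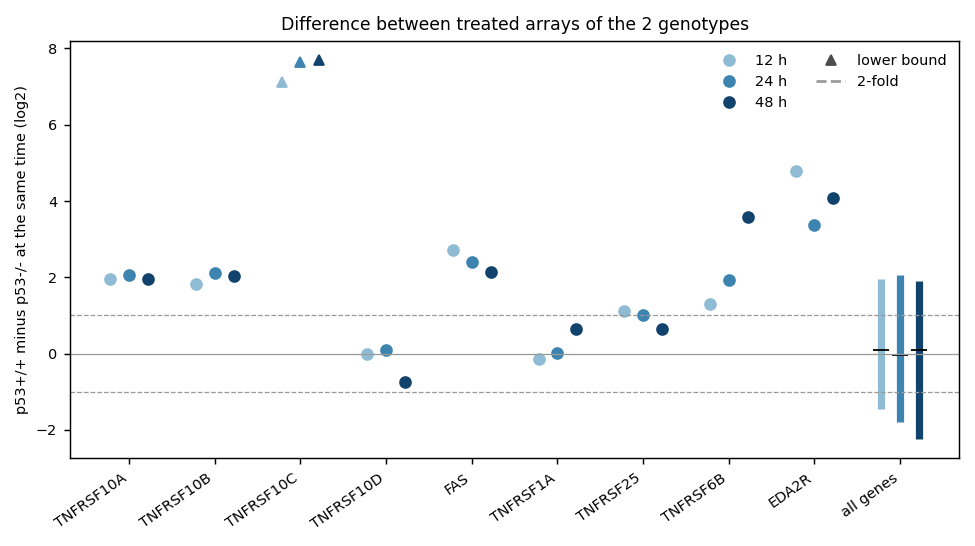
Difference in log2 level between the p53+/+ and the p53-/- array at 12, 24 and 48 h for all receptors except EDAR. Triangles are lower bounds where the p53-/- array was not well above background, the bars at the right span the 5th to 95th percentile of all genes with the median marked, and dashed lines mark 2-fold. TNFRSF10D and TNFRSF1A lie within the dashed lines at every time.

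TNFRSF10A and TNFRSF10B encode the death receptors for the ligand TRAIL (TNFSF10). TNFRSF10A had a level of 0.11 on the array labelled p53+/+ 0 h and of 1.70, 1.79 and 1.86 on the later p53+/+ arrays, by time. In p53-/- cells it was at -0.68, -0.24, -0.26 and -0.10 from 0 to 48 h. Every treated p53+/+ array was above all others, and the 3 treated times differed little. The treated genotypes differed 3.95-fold (log2 1.98, SE 0.17, adjusted p = 0.00115 in limma).

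TNFRSF10B had a level of 3.94 on the array labelled p53+/+ 0 h and of 5.58, 5.72 and 5.50 in treated p53+/+ cells, and of 2.92, 3.75, 3.61 and 3.47 in p53-/- cells at 0, 12, 24 and 48 h. The treated genotypes differed 3.97-fold (log2 1.99, SE 0.18, adjusted p = 0.0014). The treated p53-/- arrays were also above their own 0 h array, by 0.83, 0.69 and 0.54, which is short of 2-fold. Between the untreated arrays, the one labelled p53+/+ 0 h was 2.03-fold higher.

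TNFRSF10C and TNFRSF10D encode decoy receptors for TRAIL. The first is anchored in the membrane by a lipid and has no death domain, and the second has a shortened one. TNFRSF10C reached 1.58, 2.07 and 2.01 at 12, 24 and 48 h on the treated p53+/+ arrays, while on the other 5 arrays it was not well above background. The groups did not overlap. Against the lowest signals well above background on the p53-/- arrays, treated p53+/+ cells were at least 179-fold higher (adjusted p = 5.36e-05 in limma, which takes the dim values as measured). As the probe passed the filter through these 3 arrays alone, that p is a description and no support. Counted from the array labelled p53+/+ 0 h the rise was at least 132-fold, and from p53-/- 0 h at least 140-fold.

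TNFRSF10D had another pattern. It stood at 3.14 on the array labelled p53+/+ 0 h, at 2.49, 2.38 and 2.26 in treated p53+/+ cells, and at 2.55, 2.49, 2.28 and 3.01 in p53-/- cells at 0, 12, 24 and 48 h. The treated groups overlapped, and the difference of -0.21 (SE 0.24) did not pass (adjusted p = 0.57). In RefSeq's gene order the 4 TRAIL receptor genes lie together, with TNFRSF10D between TNFRSF10C and TNFRSF10A.

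FAS encodes the death receptor for FASLG. It stood at 0.04 on the array labelled p53+/+ 0 h, at 2.57, 2.51 and 2.31 in treated p53+/+ cells, and at -0.30, -0.15, 0.12 and 0.17 in p53-/- cells at 0, 12, 24 and 48 h. All treated p53+/+ arrays were above the rest, with the highest level at 12 h. The treated genotypes differed 5.34-fold (log2 2.42, SE 0.19, adjusted p = 0.00087). FAS was measured by 3 probes of the same transcript, and the other two gave differences of 2.65, 2.28 and 2.11 and of 2.74, 2.57 and 1.86 at the 3 times, against 2.71, 2.39 and 2.14 for the first.

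TNFRSF1A, the main receptor for TNF, had a level of 0.58 on the array labelled p53+/+ 0 h, of 0.66, 0.48 and 0.99 in treated p53+/+ cells, and of 0.93, 0.80, 0.47 and 0.35 in p53-/- cells at 0, 12, 24 and 48 h. The groups overlapped, and the difference of 0.17 (SE 0.22) did not pass (adjusted p = 0.64).

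TNFRSF25 encodes the death receptor for TNFSF15. It stood at 0.35 on the array labelled p53+/+ 0 h, at 1.05, 1.19 and 1.33 in treated p53+/+ cells, and at 1.30, -0.07, 0.19 and 0.67 in p53-/- cells at 0, 12, 24 and 48 h. The treated p53+/+ arrays were above the treated p53-/- arrays but about level with p53-/- 0 h. The treated genotypes differed 1.90-fold (log2 0.93, SE 0.24, adjusted p = 0.043). The call was lost with scaling by the median (adjusted p = 0.052), without scaling (0.336) and without the arrays of 12, 24 or 48 h (0.143, 0.284 and 0.058), and a second probe was not well above background on any array.

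TNFRSF6B encodes a secreted decoy that binds FASLG, TNFSF14 and TNFSF15. It stood at 0.63 on the array labelled p53+/+ 0 h, at 1.50, 2.15 and 3.15 on the p53+/+ arrays of 12, 24 and 48 h, and at 0.24, 0.19, 0.24 and -0.43 in p53-/- cells. Its p53+/+ level was higher at each later time, and the difference between genotypes went from 1.31 through 1.92 to 3.59 on the log2 scale; the trend was not tested, and the p53+/+ 48 h array is the one without spike-in signal. The treated genotypes differed 4.83-fold (log2 2.27, SE 0.44, adjusted p = 0.017). A second, dimmer probe gave differences of 1.31, 2.02 and 3.21. The gene follows RTEL1, with which it shares read-through transcripts, and RTEL1's own probe was at 0.00, 0.03 and -0.74 in treated p53+/+ cells and at 0.38, 0.21 and -0.35 in treated p53-/- cells.

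EDA2R and EDAR encode receptors for the 2 isoforms of ectodysplasin, a ligand of skin appendage development. EDA2R was at 0.85, 1.07 and 0.94 in treated p53+/+ cells, did not clear the background on the array labelled p53+/+ 0 h, and was at -1.70, -3.93, -2.31 and -3.13 in p53-/- cells at 0, 12, 24 and 48 h. The treated p53+/+ arrays were above the rest and close to each other, while the p53-/- arrays spread over more than 2 log2 units. The treated genotypes differed 16.9-fold (log2 4.08, SE 0.40, adjusted p = 0.00197). From the array labelled p53+/+ 0 h the rise was at least 69.2-fold, and from p53-/- 0 h it was 6.30-fold. That array was also at least 11.0-fold below p53-/- 0 h. A second EDA2R probe was well above background on the treated p53+/+ arrays alone. Its differences between treated genotypes were 2.08, 2.19 and 3.20 with dim values as measured, against 4.78, 3.38 and 4.07 for the first. Both probes were printed in 1 spot each, and the folds above rest on the first. EDAR was not well above background on any array and was not tested.

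**Figure D3:**
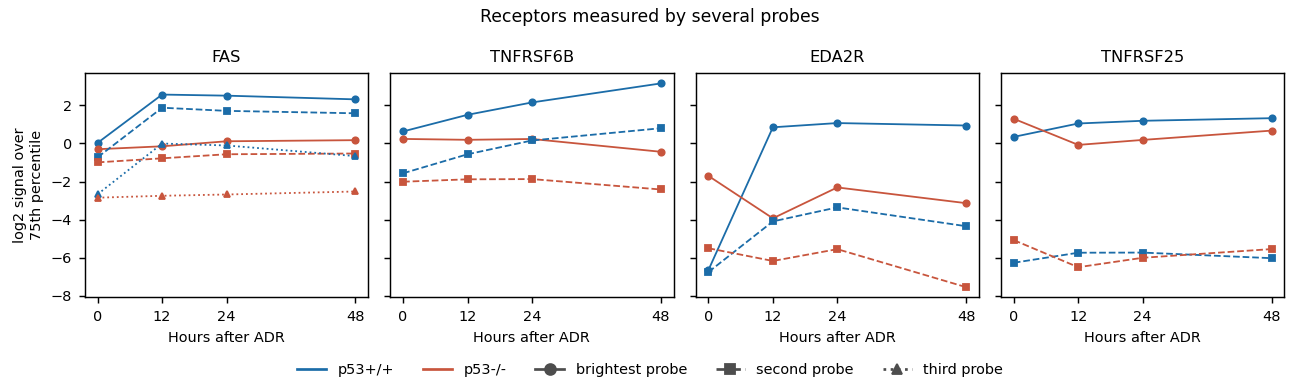
Levels (log2 of the signal over the array's 75th percentile) of each probe of the 4 receptors with more than 1 probe, against hours after ADR, in p53+/+ cells (blue) and p53-/- cells (red). The 3 FAS probes and both TNFRSF6B probes run in parallel, while the second TNFRSF25 probe is not well above background on any array.

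Set against untreated cells, 5 receptors rose 2-fold or more at all 3 times above the array labelled p53+/+ 0 h, against 9.53% of genes: TNFRSF10A, TNFRSF10B, TNFRSF10C, FAS and EDA2R. TNFRSF6B rose by 0.87 at 12 h and by 1.52 and 2.52 later. From the p53-/- 0 h array 6 receptors rose in this way, TNFRSF6B included, against 9.55% of genes. TNFRSF10C is in both counts and had to rise, as it passed the filter through its treated p53+/+ arrays alone. In p53-/- cells no receptor was 2-fold or more above its 0 h array at all 3 times, against 3.21% of genes, and none was below, against 2.04%. The p53-/- changes closest to 2-fold at all times were those of TNFRSF25, of -1.37, -1.11 and -0.62, and EDA2R, of -2.22, -0.60 and -1.43.

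**Figure D4:**
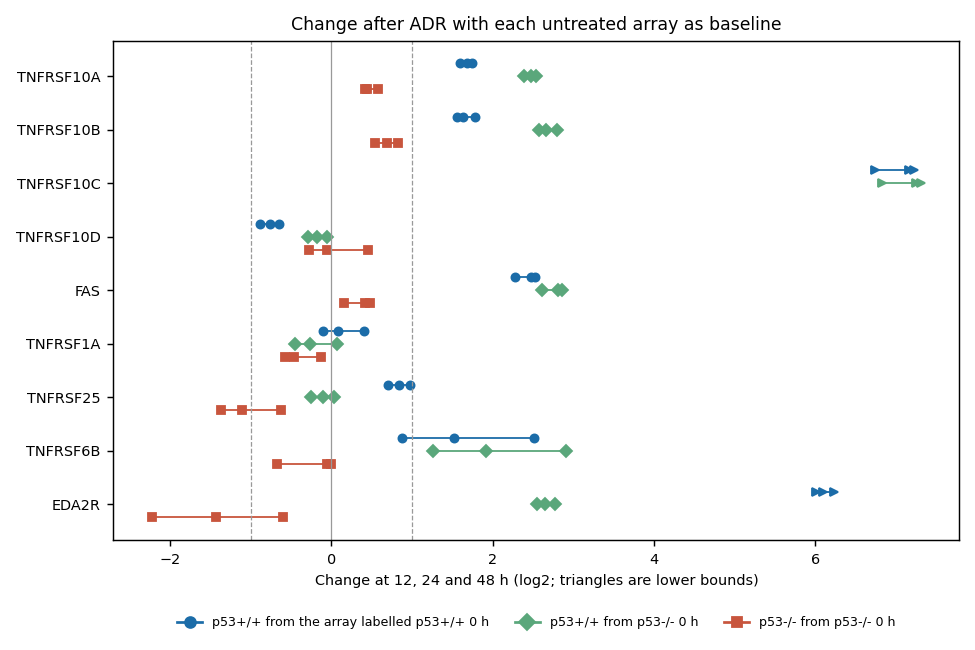
Change in log2 level at 12, 24 and 48 h for each receptor, in p53+/+ cells from the array labelled p53+/+ 0 h (circles), in p53+/+ cells from p53-/- 0 h (diamonds) and in p53-/- cells from p53-/- 0 h (squares). Triangles are lower bounds, dashed lines mark 2-fold, and TNFRSF10C has no p53-/- change because it was not well above background there.

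The change after ADR was 2-fold or more larger in p53+/+ than in p53-/- cells at all 3 times for TNFRSF10A, TNFRSF10C, FAS, TNFRSF25 and EDA2R, against 9.39% of genes. TNFRSF10C entered through its treated p53+/+ arrays alone, so that it had to differ in this count and in the interaction. limma's interaction of genotype and ADR over the 8 arrays rests on the array labelled p53+/+ 0 h. It passed for TNFRSF10C (adjusted p = 0.00483, a description and no support) and EDA2R (adjusted p = 0.0098), against 0.94% of probes. It missed the threshold for FAS (log2 2.08, SE 0.37, adjusted p = 0.054), TNFRSF25 (adjusted p = 0.118), TNFRSF10A (adjusted p = 0.141) and TNFRSF10B (adjusted p = 0.237), and neither call held without the 24 h or without the 48 h arrays.

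The other genes of the pathway were taken as lists. Of 5 measured ligands 1 was higher in treated p53+/+ cells by size at all 3 times, against 6.75% of all genes. This was TNFSF15, by at least 3.82-fold and 6.07-fold at 12 and 24 h, where the p53-/- array was not well above background, and by 3.12-fold at 48 h (adjusted p = 0.040 with dim values as measured). FASLG and LTA were not well above background on any array. TNFSF10, the TRAIL gene, rose at least 12.3-fold in p53+/+ cells from the array labelled p53+/+ 0 h, where it was dim, while from p53-/- 0 h its changes were 1.45, 2.30 and 0.76 on the log2 scale, short of 2-fold at 48 h. It differed between the treated genotypes by 2.59, 1.38 and -0.63 (adjusted p = 0.32). TNFSF14 rose in both genotypes, in p53+/+ cells by 2.17, 2.24 and 2.73 from the array labelled p53+/+ 0 h. From p53-/- 0 h its changes were 2.49, 2.56 and 3.04 in p53+/+ and 1.24, 1.82 and 2.82 in p53-/- cells.

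Of 14 measured adaptors, caspases and kinases none was higher in treated p53+/+ cells by 2-fold or more at all 3 times, or in limma. The shares were 6.75% of all genes and 10.6% of all probes. In limma 4 were lower (TRAF1, RIPK1, BID and TRAF2), against 7.4% of all probes. TRAF1, an adaptor of TNF receptors, was not well above background on any of the treated p53+/+ arrays. It was at least 2.23-fold lower there than in treated p53-/- cells (adjusted p = 0.0035 in limma, with dim values as measured). By time the bounds were 3.66-fold, 1.80-fold and 1.70-fold. Of the treated arrays only those of p53-/- cells measured it, so that this p is a description and no support. In treated p53+/+ cells TRAF1 was also at least 2.51-fold lower than on the array labelled p53+/+ 0 h. From that array 6.39% of all genes fell by size at all 3 times. Against p53-/- 0 h there was no measured fall, as it was not well above background on either side. It rose at least 3.40-fold in p53-/- cells from a dim 0 h array. FADD and CASP8 did not pass in limma, with mean differences of -0.02 each over the 3 times. Both changed sign over time, from -0.40 through -0.06 to 0.39 for FADD and from 0.55 through 0.26 to -0.86 for CASP8.

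Of 9 genes on the list of inhibitors and their antagonists BIRC2 was lower in limma (adjusted p = 0.024), against 7.4% of all probes. TNFAIP3, a feedback inhibitor of NF-kB, rose in p53-/- cells by 1.66, 2.28 and 2.30 and was at -2.08 on p53-/- 0 h against 0.93 on the array labelled p53+/+ 0 h. CFLAR, which blocks caspase-8 at death receptors, did not pass.

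The other TNF receptors moved both ways. Of 15 measured, 3 were higher by 2-fold or more at all 3 times in treated p53+/+ cells, against 6.75% of all genes. In the same way 2 were lower, against 5.92%. TNFRSF14, a receptor for TNFSF14, was well above background on 1 p53-/- array, that of 24 h, where the difference was 117-fold; it was at least 83.6-fold at 12 h and at least 101-fold at 48 h (adjusted p = 0.00024 with dim values as measured). NGFR, the low-affinity neurotrophin receptor, was well above background on 1 p53-/- array, that of 48 h, where it was 2.08-fold higher in p53+/+ cells; it was at least 7.72-fold higher at 12 h and at least 20.1-fold at 24 h (adjusted p = 0.048, likewise). CD40 passed by size, but was well above background on the p53+/+ 12 h array alone. TNFRSF9, the receptor CD137, was 1 of the 2 lower, by at least 1.48-fold, and rose at least 2.26-fold in p53-/- cells. It was measured on the treated p53-/- arrays alone and passed the filter through them, so that it had to differ. Its adjusted p of 0.0068 in limma, with dim values as measured, is a description and no support. TNFRSF21, which has a death domain, differed by -1.77, -1.92 and -1.15 (adjusted p = 0.0048). TNFRSF11A rose at least 2.29-fold in p53-/- cells. The median of the mean differences was 1.99 for the 9 receptors, 0.74 for ligands, -0.03 for adaptors, caspases and kinases, -0.24 for inhibitors, 0.33 for other TNF receptors and 0.05 for all genes.

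**Figure D5:**
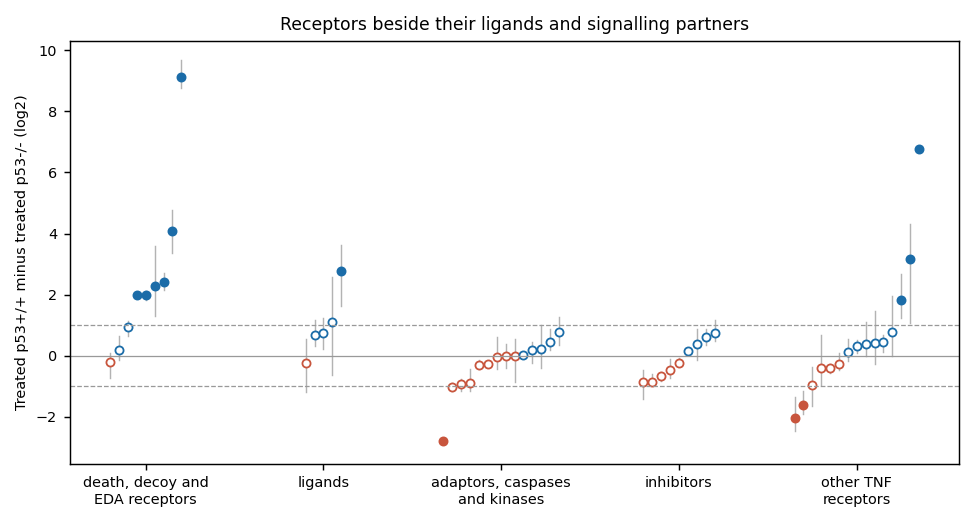
Difference between treated p53+/+ and treated p53-/- arrays for the receptors and for 4 lists of pathway genes, 1 point per gene at the mean of 3 times with a line from the lowest to the highest. Values are as measured, dim ones included, filled points are 2-fold or more one way at all 3 times, and dashed lines mark 2-fold. No adaptor, caspase, kinase or inhibitor has a filled point above 0.

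Among the 6 receptors well above background on at least 4 arrays and varying by over 2-fold, 15 pairs had a Pearson r of log2 levels over the 8 arrays of 0.472 to 0.989. TNFRSF10A, TNFRSF10B and FAS had the highest values with each other (0.989, 0.985 and 0.973), and TNFRSF25 with TNFRSF10B the lowest. Of 13761 genes, the patterns most like FAS were those of SESN2, SDCBP2 and SESN1 (r = 0.997, 0.996 and 0.996). Those most like TNFRSF10A were RPL23AP87, TIGAR and IL1A (r = 0.995, 0.995 and 0.994), and those most like TNFRSF10B were AEN, RNF185 and CPT2 (r = 0.995, 0.993 and 0.993). TNFRSF6B had IDS, DRAM1 and DUSP3 beside it (r = 0.994, 0.990 and 0.989). For EDA2R the genes were KIAA1671, TRIM2 and FNBP1 (r = 0.985, 0.978 and 0.978), and for TNFRSF25 they were KRTCAP3, MCL1 and KCTD21 (r = 0.978, 0.955 and 0.953). Each r of EDA2R includes its dim value of -6.64 on the array labelled p53+/+ 0 h. KIAA1671, TRIM2 and FNBP1 also had their lowest levels on that array (0.67, -2.86 and -0.94). All arrays share 1 slide, and the points fall by genotype and treatment.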

How the data were processed

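Each of 8 RNA samples of MCF10A p53+/+ and p53-/- cells was hybridised to 1 single-colour array (Agilent SurePrint G3), and arrays were grouped by the labels. What the authors deposited is the output of the scanner software (Agilent Feature Extraction 10.7.3.1 per the labels, build hg19 per the file headers). Its processed signal was analysed, a linear intensity already corrected for background when deposited. A series-wide table held the same values within a relative tolerance of 1e-05. A normalization between arrays is not given in the sources used here.

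Of 62976 spots per array, 58717 were not controls; uneven and outlier spots were left out. Each processed signal was divided by its array's 75th percentile, and the log2 of this was averaged over the spots of each of 42391 probes. Probes were named by transcript through a RefSeq gene table (GRCh38.p14, not the build of the arrays, so coordinates are given only for the RefSeq promoter windows of that build), 64.2% with 1 gene. A probe counted as well above background by the scanner software's flag. Where 1 side was not, a bound used the lowest signal well above background on that array, or the probe's own signal where that was higher. The receptors and lists were chosen with earlier results of these data known. The rule named all receptors, the checks CDKN1A and MDM2, the list genes past 2-fold at all 3 times, and 3 genes most alike per receptor; some genes that the rule covers are not reported here. CDKN1A and MDM2 were 9.93-fold and 8.90-fold higher in treated p53+/+ than treated p53-/- cells. CDKN1A also rose in p53-/- cells from p53-/- 0 h, by 2.01, 2.33 and 2.49 on the log2 scale. It was 3.56-fold higher on the array labelled p53+/+ 0 h than on p53-/- 0 h. In limma's interaction MDM2 passed (adjusted p = 0.032) and CDKN1A did not (adjusted p = 0.126).

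limma 3.58.1 (R 4.3.3; lmFit, eBayes) was fitted by genotype on the 6 treated arrays and by genotype, ADR and interaction on all 8, each with 4 residual degrees of freedom and a threshold of 0.05, after tests on simulated data. The number of arrays limits the precision. Technical SDs came from 999 probes printed in 10 spots. Alternatives were quantile normalization, scaling by the median, no scaling, normexp (offset 50), the mean of all probes, p53-/- 0 h as the only baseline, other filters on dim probes, a floor on the signal, a 3-fold rule, 2 of 3 times, time as a block, and leaving out each treated time.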

Additional observations from a re-analysis of the deposited data

Results flagged for a closer look

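The interaction of genotype and ADR passed limma's threshold for 2 receptors, TNFRSF10C (log2 9.12, SE 0.50) and EDA2R (log2 9.01, SE 0.80). Both rest on dim values of the array labelled p53+/+ 0 h. TNFRSF10C also entered through its treated p53+/+ arrays alone, so that it had to differ. Without the arrays of 24 h both receptors had an adjusted p of 0.156 in limma. TNFRSF25 moved up in p53+/+ and down in p53-/- cells at all 3 times, with a mean difference of 1.87 on the log2 scale; it also lay 0.95 lower on the array labelled p53+/+ 0 h than on p53-/- 0 h, which enters this difference. TNFRSF6B had a mean difference of 1.88, with p53+/+ changes above 0 and p53-/- changes below 0 on its brightest probe. Its p53-/- changes at 12 and 24 h were -0.0467 and -0.00317, within the technical SD of 0.0981, and its second probe was higher at these times (-1.88 and -1.87) than at 0 h (-2.01). By their opposite signs alone these last differences are not tested, and their adjusted p in limma's interaction was 0.118 and 0.339.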

How the results depend on the processing

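No receptor's mean difference or limma estimate that passed its threshold changed sign under any alternative. The 6 receptors higher by size in treated p53+/+ cells were 4 to 7 under the alternatives. Receptors above the array labelled p53+/+ 0 h were 3 in place of 5 with probes well above background on all 8 arrays, since TNFRSF10C and EDA2R were not tested there. Receptors with a larger change in p53+/+ cells were 2 without scaling and 3 with those probes, in place of 5. limma's calls between treated genotypes were 2 without the 24 h arrays, TNFRSF10C and EDA2R, in place of 7, with adjusted p of 0.053 for FAS, 0.067 for TNFRSF10A, 0.071 for TNFRSF10B, 0.166 for TNFRSF6B and 0.284 for TNFRSF25. Interaction calls were 5 with normexp, 1 (FAS) with probes well above background on all 8 arrays, and 0 in limma without the 24 h or without the 48 h arrays, in place of 2; at an unadjusted p under 0.05 they were 4 and 5 there (10.6% and 18.2% of all probes), against 6 over all times (17.1%). Over all probes, calls between treated genotypes went from 5201 (58.8% higher in p53+/+) to 9393 without scaling (14.5%), 9894 with normexp (73.3%), 12536 with no filter (78.4%) and 292 without the 24 h arrays, with 45.7% higher of 4937 by median scaling. The median difference of all genes moved from 0.05 to -0.55 without scaling, -0.09 with median scaling and 0.19 with normexp. Without scaling limma's log2 difference between treated genotypes was lower for every receptor tested. It was 1.38 in place of 1.98 for TNFRSF10A, 1.39 in place of 1.99 for TNFRSF10B and 1.82 in place of 2.42 for FAS. The folds given for the receptors therefore depend on the scaling. Interaction calls went from 488 to 1296 without scaling, 1251 with normexp, 60 with time as a block, 42 without the 12 h arrays and 0 when those of 24 h or 48 h were left out. Genes higher by size went from 1068 to 538 without scaling, 571 at 3-fold and 1853 at 2 of 3 times. Other causes were not tested. By replicate number, no paired analysis was possible because each group has 1 array; with the genotypes paired by time, as a block, the same 7 and 2 receptors passed. Signal over background limits TNFRSF10C, EDA2R and EDAR.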
